A study of Mus musculus with 8 samples.

Results

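Ptprt, Uts2 and Myoz3 are the 3 genes described here, of 19751 named genes on the array, chosen because their probes gave some of the strongest falls in AtT20 cells after HX630. AtT20 is a mouse line of corticotroph tumor cells from the pituitary and secretes ACTH. HX630 is a synthetic compound that activates the retinoid X receptors (RXRs). RNA came from 4 control samples, incubated without an agonist, and 4 samples incubated with 10 μM HX630, all for 48 hr in DMEM with stripped FBS. Each sample was labeled with Cy3 and hybridized to its own 1-color Agilent mouse array. The 3 genes have 5 of the 39429 probes, 2 for Ptprt, 1 for Uts2 and 2 for Myoz3, and each probe is described apart.

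Ptprt encodes a receptor-type tyrosine phosphatase of the R2B group, which also holds Ptprk, Ptprm and Ptpru. These proteins bind their own kind on neighboring cells. Ptprt removes phosphate from partners inside the cell, among them STAT3 and paxillin, and is known mainly from the nervous system. Uts2 encodes the precursor of urotensin II, a short cyclic peptide related to somatostatin that acts through the receptor Uts2r and is known for its effect on blood vessels. Myoz3 encodes calsarcin-3, a protein of the sarcomeric Z-disc of fast skeletal muscle that binds calcineurin and alpha-actinin. RXRs act as partners of many other nuclear receptors on DNA, and such pairs often bind copies of the hexamer AGGTCA.

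The windows before the annotated starts of Ptprt and Uts2 are shown so that the sequences of 2 genes with the same direction of change can be set side by side. RefSeq windows on assembly GRCm38.p6 were matched for 2 of the 3 genes, and the 250 bases before the start are printed 5′ to 3′ on the strand of the gene. For Ptprt the window is chr2:162661148-162661397 on the minus strand, with GGGCGG, the letters of a GC box, in capitals. For Uts2 the window is chr4:150996847-150997096 on the plus strand, with AGGTCA and the letters TATAAA on either strand in capitals.
Ptprt: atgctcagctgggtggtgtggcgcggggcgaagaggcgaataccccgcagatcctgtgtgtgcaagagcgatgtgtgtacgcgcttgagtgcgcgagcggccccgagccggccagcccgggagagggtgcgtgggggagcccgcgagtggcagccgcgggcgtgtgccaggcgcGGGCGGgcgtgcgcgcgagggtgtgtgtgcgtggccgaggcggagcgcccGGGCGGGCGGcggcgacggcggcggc
Uts2: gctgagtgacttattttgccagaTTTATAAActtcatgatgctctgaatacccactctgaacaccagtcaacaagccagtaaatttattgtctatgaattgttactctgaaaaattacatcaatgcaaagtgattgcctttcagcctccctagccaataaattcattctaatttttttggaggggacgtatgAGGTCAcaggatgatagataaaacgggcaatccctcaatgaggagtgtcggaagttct
The Ptprt window had a GC content of 76.4% with 39 CpG dinucleotides, and 97% of the 32841 windows of the same length had a lower GC content. The Uts2 window had a GC content of 38.8% with 3 CpG dinucleotides, and 9.68% of windows had a lower one. The median window had 52.4% GC.

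Both strands of each window were searched for 8 sets of letters. AGGTCA stood once in the Uts2 window, 58 bases before the start, and not in the Ptprt window, while 14% of all windows held it. TATAAA lay within an 8-base run that holds it on both strands with overlap, starting 227 bases before the start of Uts2, and 12.4% of all windows held it. GGGCGG occurred 3 times in the Ptprt window, with an overlap between the last 2, against 32.7% of windows with at least 1. CACGTG (6.02% of windows), ACGTG (16.6%, which overlaps CACGTG), TGACGTCA (1.55%), TGACTCA (4.46%) and TTCNNNGAA (7.02%) were in neither. A match is a description of letters only and was not tested as a binding site.

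Signals are given on a log2 scale, after Feature Extraction removed the background, relative to the 75th percentile of each array, so that 0 stands for that percentile. This percentile was 1335 to 1863 intensity units in the controls and 1803 to 1899 units with HX630, and 69.7% to 73.5% of probes were well above background. Of 28543 probes tested with limma, 5313 (18.6%) were called, 3182 (11.1%) lower and 2131 (7.47%) higher, with thresholds of 1.5 for the fold change and 0.01 for the adjusted p. The share of higher calls was 40.1%, but 50.9% after scaling to the array median and 68.9% after scaling to the spike-in probes, which moved the median log2 difference of all tested probes from -0.056 to 0.17. The control arrays were on 1 slide and scan and the HX630 arrays on another, so slide and treatment cannot be told apart. Of 7 corticotroph markers, 6, including Pomc and Tbx19, were well above background on all 8 arrays, and Avpr1b on none. As these are bulk samples, fewer cells of a type and less RNA per cell cannot be told apart.

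Both Ptprt probes went from high signals on every control array to a small remainder on every HX630 array. The log2 signal of probe A_51_P395373 was 2.32, 2.35, 2.27 and 2.30 on control replicates 1 to 4, and -3.11, -4.24, -4.42 and -4.36 on HX630 replicates 1 to 4. That of A_55_P1981909 was 1.79, 1.62, 1.55 and 1.62 in the controls and -3.96, -5.83, -6.13 and -5.85 with HX630. The groups did not overlap for either probe, the control arrays lay close together, and HX630 replicate 1 was the highest of the HX630 arrays in both. The means of A_51_P395373 were 2.31 ± 0.033 (SD, n = 4) and -4.03 ± 0.62 (SD, n = 4), a log2 difference of -6.34, or 1.23% of the control level. The means of A_55_P1981909 were 1.64 ± 0.10 (SD, n = 4) and -5.44 ± 1.00 (SD, n = 4), a log2 difference of -7.08, or 0.737% of the control level. The change of the second probe was larger than that of the first by 0.74 on the log2 scale (SE 0.20). This gap depended on the background subtraction, since normexp with an offset of 50 gave -5.47 and -5.48. Both probes carry the same transcript accession.

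Uts2 had a like pattern with its only probe. The log2 signal of A_51_P334689 was 0.69, 0.69, 0.75 and 0.85 on the control arrays and -4.18, -5.23, -5.03 and -5.52 on the HX630 arrays. Every HX630 array lay below every control array, with replicate 1 again the highest of the HX630 arrays. The mean went from 0.74 ± 0.075 (SD, n = 4) to -4.99 ± 0.58 (SD, n = 4). This was a log2 difference of -5.73, or 53.1-fold, and left 1.88% of the control level.

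The probes of Myoz3 gave changes of very different size, although the files tie both to 1 transcript accession. Probe A_55_P2217438 had log2 signals of -1.03, -1.02, -0.97 and -0.97 in the controls and -5.14, -6.28, -6.20 and -6.49 with HX630, a mean log2 difference of -5.03 or 32.6-fold. Probe A_55_P1963239 had log2 signals of -2.72, -3.01, -3.22 and -3.32 in the controls and -4.0, -4.23, -4.13 and -4.08 with HX630, a mean log2 difference of -1.04 or 2.06-fold. The groups did not overlap on either probe, but the first kept 3.07% of its control level and the second 48.6%. The changes differed by 3.99 on the log2 scale (SE 0.31), and by 3.21 to 4.47 when each HX630 array was taken alone. The fall of Myoz3 is thus stated for A_55_P2217438, and A_55_P1963239 had rank 1254 among all tested probes ordered by fall. Which parts of the transcript the probes cover is not given in the files used here, and the reason for the difference was not tested.

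**Figure D1:**
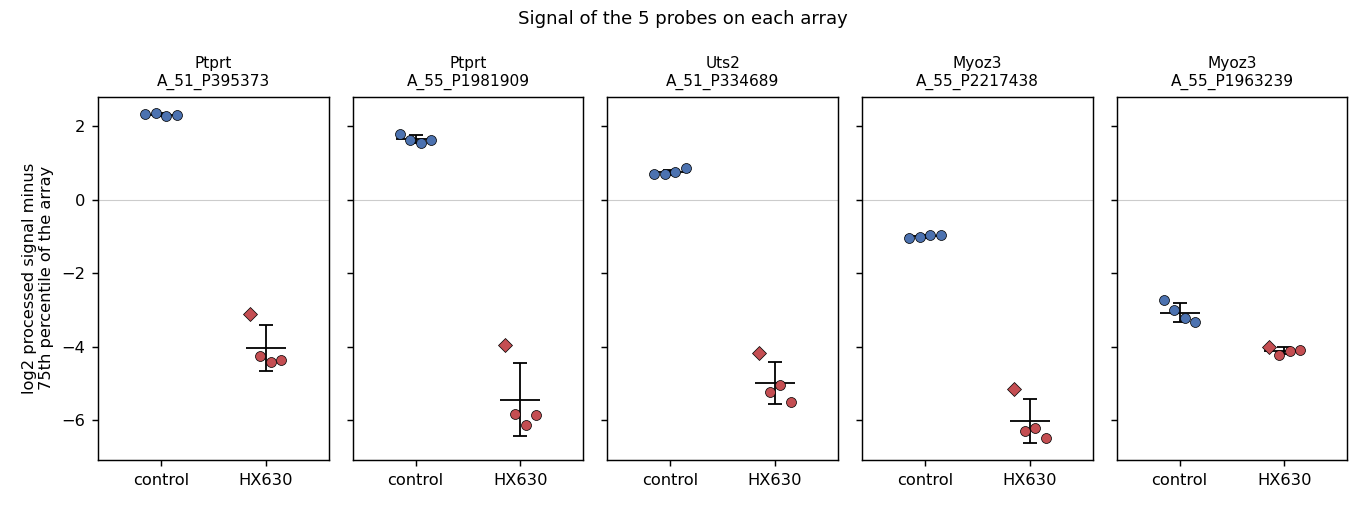
Log2 signal relative to the 75th percentile of each array (vertical axis) for each of the 5 probes in the 4 control and 4 HX630 arrays. Points are arrays, diamonds are HX630 replicate 1, and the horizontal and vertical lines are the mean and SD. On all 5 probes every HX630 array lies below every control array, and the gap on Myoz3 A_55_P1963239 is the smallest of the 5 at 1.04 between means.

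All 5 probes passed the rule for a lower call, beside 11.1% of all tested probes, and had HX630 arrays below every control array, beside 31.3% of tested probes. As the genes were chosen from this contrast, these counts are a description and carry no test. All 5 were well above background on all 8 arrays, so that the falls are measured values and not bounds. The remaining signals were nevertheless small. The median raw intensity of the Myoz3 A_55_P2217438 spot was between 68 and 118.5 units with HX630, against 781 to 1084 in the controls, while the median negative control spot read 35.5 to 49 units on the HX630 arrays. For Uts2 it was 93 to 178 units with HX630 against 2443 to 3471 in the controls.

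The sizes of the falls rest on how the background is removed. With normexp background correction and an offset of 50, the log2 differences became -5.47 and -5.48 for the Ptprt probes, -4.48 for Uts2, -3.19 for Myoz3 A_55_P2217438 and -0.68 for A_55_P1963239. The direction was the same under every scaling, filter and left-out array that was run. Scaling to the spike-in probes gave -0.82 for A_55_P1963239.

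HX630 replicate 1 stood apart from the other HX630 arrays on the probes that fell strongly. Its gap to the mean of the other 3 was 1.23 and 1.97 on the log2 scale for the Ptprt probes, 1.08 for Uts2 and 1.18 for Myoz3 A_55_P2217438, and 0.14 for A_55_P1963239. As shares of the control level, replicate 1 kept 2.33% and 2.05% for Ptprt, 3.31% for Uts2 and 5.66% for Myoz3 A_55_P2217438, whereas the other 3 kept 0.457% to 1.06%, 1.31% to 1.82% and 2.23% to 2.72%. Without this array the log2 differences were -6.65 and -7.58 for Ptprt, -6.00 for Uts2, -5.32 for Myoz3 A_55_P2217438 and -1.08 for A_55_P1963239.

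The same array was also high on most other probes with large falls. It was the highest of the HX630 arrays on 90 of the 100 probes with the largest fall, against 45.3% of the 26099 probes that were well above background on all 8 arrays, and the lowest on 55 of the 100 with the largest rise, against 23.8% of those probes. Over those 100 falls its median excess was 2.83% of the control level (interquartile range 1.71 to 4.12), and for the 4 probes with a strong fall described here it was 1.34%, 1.53%, 1.73% and 3.15%. The mean correlation with the control arrays over probes was 0.983 for replicate 1 and 0.981 for each of the other HX630 arrays. What set this array apart was not tested.

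**Figure D2:**
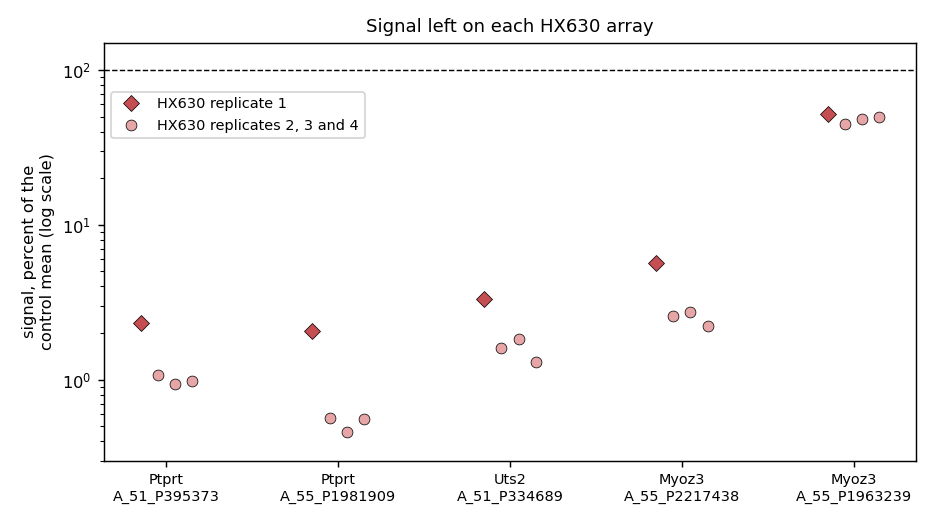
Signal on each HX630 array as a percent of the control mean (log axis; the dashed line is the control mean) for the 5 probes. Replicate 1 (dark diamonds) lies above replicates 2, 3 and 4 (light points) on every probe, at 2.05% to 5.66% on the 4 probes with a strong fall.

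The spread among HX630 arrays was accordingly large for these probes. The SD within HX630 was above that of 98.1% and 99.4% of tested probes for Ptprt, 97.8% for Uts2 and 98% for Myoz3 A_55_P2217438. Without replicate 1 these SDs were 0.089 and 0.17, 0.24, and 0.15, above those of 66.1%, 84.7%, 91.4% and 81.9% of tested probes. Within the controls the same 4 probes had SDs between 0.033 and 0.10, where the median tested probe had 0.10. Myoz3 A_55_P1963239 was different, with an SD of 0.26 in the controls and 0.094 with HX630.

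Among named genes that were well above background on all 8 arrays, taking the probe with the largest fall of each gene, Ptprt, Uts2 and Myoz3 had ranks 1, 3 and 5 in the order of fall, with Perm1 at rank 2 and Ppargc1a at rank 6. Perm1, a muscle regulator that acts with PGC-1 and ERR factors, had a log2 difference of -6.28 (SE 0.37). Ppargc1a, which encodes the coactivator PGC-1alpha, had one of -4.94 (SE 0.21). Myoz3 and Ppargc1a lay closer together than either SE, so that their order is not settled. The rank of Myoz3 also holds for the main background subtraction only. With normexp and an offset of 50, Myoz3 A_55_P2217438 had a difference of -3.19, whereas Ppargc1a had -4.03 or lower under every alternative. Perm1 lay 0.81 from Ptprt A_55_P1981909 but only 0.07 from Ptprt A_51_P395373.

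**Figure D3:**
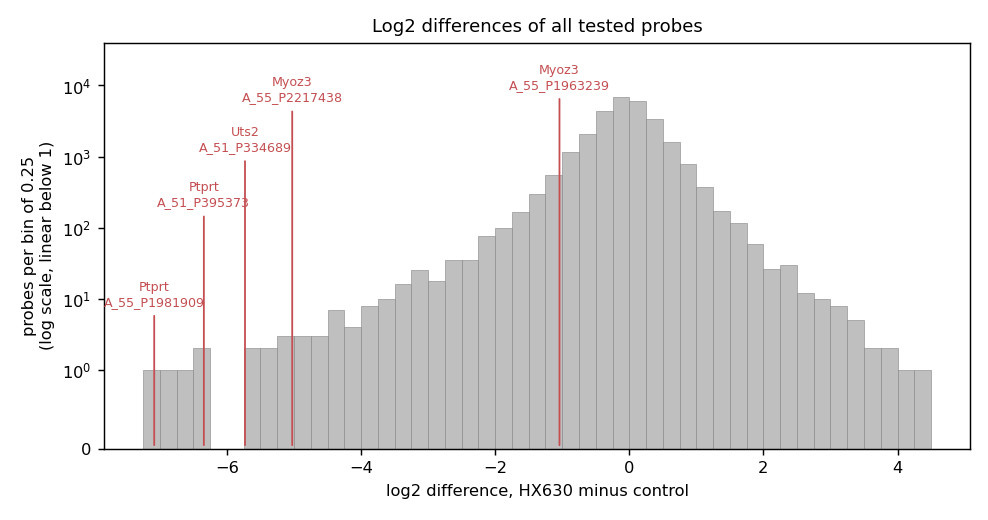
Number of probes (vertical axis, logarithmic above 1) by log2 difference between HX630 and control (horizontal axis) for the 28543 tested probes, with the 5 probes of Ptprt, Uts2 and Myoz3 marked. The 4 probes with a strong fall lie in the thin left tail between -7.08 and -5.03, and Myoz3 A_55_P1963239 lies in the body at -1.04.

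Patterns across arrays were compared by the root mean square difference over the 8 arrays of the log2 signal relative to the control mean. For Ptprt the nearest gene was Perm1 (0.17 from A_51_P395373 and 0.59 from A_55_P1981909), followed by Uts2 (0.46 and 1.02). For Uts2 the nearest genes included Perm1 (0.45) and Ptprt (0.46). For Myoz3 A_55_P2217438 they were Ppargc1a (0.14), Car9, a carbonic anhydrase known as a hypoxia target (0.35), and Uts2 (0.50). For A_55_P1963239 they were the olfactory receptor gene Olfr513 (0.059), Tlcd2 (0.097) and Apobec3 (0.10). By construction this measure mostly follows the size of the change, and it is a description over 8 arrays of 2 conditions.

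Ptpru, of the same R2B group as Ptprt, had a log2 signal of 1.42 ± 0.012 (SD, n = 4) in the controls and 1.29 ± 0.0071 (SD, n = 4) with HX630 on A_55_P1992019, a difference of -0.13 (SE 0.028, adjusted p = 0.0042 by limma) that stayed under the fold threshold. Scaling to the spike-in probes turned its sign (0.091). Its second probe, A_55_P2000137, had a difference of 0.13 (adjusted p = 0.28). Ptprk was well above background on the 4 control arrays and on no HX630 array, but its control values were -5.92, -3.74, -6.23 and -6.48, of which control replicate 2 is far from the rest, and the difference was not called (at least 2.45-fold lower, adjusted p = 0.074). Without that array it was at least 1.6-fold lower (adjusted p = 0.029 by limma), also not called. Both minima hold for the main background subtraction only, and normexp gave smaller falls. With normexp the log2 difference of Ptprk over all arrays was -0.38 with an offset of 50 and -0.58 with an offset of 16. Ptprm was not well above background on any array.

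Uts2r, the receptor of urotensin II, was detected on all 8 arrays. Its log2 signals were -2.47, -2.55, -2.88 and -2.85 in the controls and -2.79, -2.83, -2.74 and -2.74 with HX630. The groups overlapped, and the difference was -0.088 (SE 0.097, adjusted p = 0.47), whose sign turned with scaling to the spike-in probes (0.13) and with array weights (0.0076). Uts2b, which encodes the related precursor of the urotensin II-related peptide, was not well above background on any array. Myoz1, the calsarcin of fast muscle most like Myoz3, had signals of -5.67, -5.87, -6.20 and -5.62 in the controls and -6.72, -6.71, -6.81 and -6.21 with HX630. It was called lower by 1.71-fold (SE 0.17 on the log2 scale, adjusted p = 0.0054), and the call was lost under several settings, including leaving out any of control replicates 1, 2 and 4 or HX630 replicates 1, 2 and 3 (adjusted p = 0.014 to 0.018). With normexp its log2 difference was -0.075 with an offset of 50 and -0.12 with an offset of 16. Myoz2, the calsarcin of heart and slow muscle, was not well above background on any array.

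**Figure D4:**
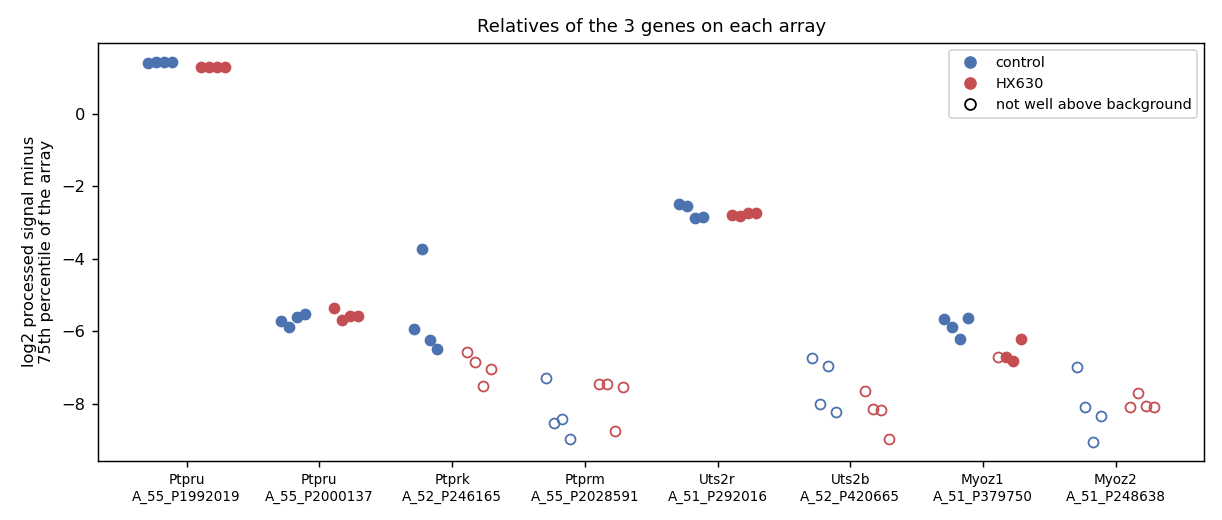
Log2 signal relative to the 75th percentile of each array (vertical axis) for relatives of Ptprt, Uts2 and Myoz3 on each control (blue) and HX630 (red) array. Open circles are arrays on which the probe was not well above background. Ptpru and Uts2r were at similar levels in both groups, while Ptprm, Uts2b and Myoz2 were not well above background on any array.

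Lists of related genes, without the 3 genes themselves, were then counted, with 1 probe per gene. Over all 15318 genes tested, 2994 (19.5%) were called, of which 1710 (11.2% of those tested) were lower and 1284 (8.38%) higher, with a median log2 difference of -0.034. Scaling to the spike-in probes raised the median of all genes to 0.19 and turned the list medians given below for receptor tyrosine phosphatases (0.0067), STAT3 response (0.036), urotensin and somatostatin (0.13), Z-disc (0.20) and striated muscle genes (0.0052) from below to above 0. It did not turn those of peptide precursors (-0.15) or Ptprt partners (0.28), and the Z-disc median also turned with quantile normalization (0.015), the array median (0.061) and normexp (0.014 with an offset of 50 and 0.018 with an offset of 16). Among other receptor tyrosine phosphatases, 12 of 20 genes were tested, 2 rose and 1 fell, with a median of -0.22. Ptprf, the adhesion receptor LAR, rose by 1.22 on the log2 scale (SE 0.030, adjusted p = 1.2e-07), and Ptprj rose by 0.75 (SE 0.039, adjusted p = 2.1e-06). Of the 4 tested Ptprj probes, A_55_P2038139 did not follow, at -0.045. Ptprn, an inactive family member of secretory granules, was the gene that fell, to 58.6% of control, a call that was lost with scaling to the spike-in probes.

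Of 15 tested substrates and adhesion partners of Ptprt, 4 rose and none fell, with a median of 0.057. They included the synaptic adhesion genes Nrxn3 (log2 difference 2.83, SE 0.048, adjusted p = 5.7e-08) and Nlgn3 (0.64, SE 0.072, adjusted p = 0.00014), as well as Cdh2, which encodes N-cadherin (0.72, SE 0.035, adjusted p = 1.5e-06). The Nlgn3 call was lost with normexp and an offset of 50, and its second probe, A_55_P1961002, was at -0.24. Stat3 had a difference of -0.39 (adjusted p = 0.0047) and Pxn, which encodes paxillin, one of -0.44 (adjusted p = 0.041), and neither was called.

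Genes known to respond to STAT3 moved in both directions. Of 17 tested, 4 fell and 3 rose, with a median of -0.19. Cebpb (-0.80), Vegfa (-0.78), Socs3, a feedback inhibitor of cytokine signaling (-0.66), and Myc (-0.65) fell, and Gfap (0.97), the survival gene Bcl2l1 (0.72) and Cebpd (0.59) rose. With scaling to the spike-in probes all 4 lower calls were lost and Birc5 was called higher beside the other 3. The calls of Socs3 and Myc were also lost with scaling to the array median, and those of Gfap, Cebpd and Myc with either normexp setting. The Cebpd call was further lost with array weights and without control replicate 1 or HX630 replicate 2 or 3.

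Among 7 tested genes of the urotensin and somatostatin system, 2 rose and 1 fell, with a median of -0.088. Sstr3, a somatostatin receptor, had log2 signals of -1.0 ± 0.027 (SD, n = 4) in the controls and 1.69 ± 0.041 (SD, n = 4) with HX630, a 6.47-fold rise (adjusted p = 4.9e-08). Cort, the precursor of the somatostatin-like peptide cortistatin, rose 2.13-fold (adjusted p = 4.2e-06). Sst fell to 65.8% of control (adjusted p = 7.7e-05), close to the fold threshold, and without control replicate 1 or HX630 replicate 4, with outlier spots kept or under 5 other settings it was under that threshold. Sstr5 had a difference of -0.55 (adjusted p = 7.2e-06), under the fold threshold.

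Uts2 is a peptide hormone precursor, and 41 other such precursors were tested, of which 12 fell and 1 rose (29.3% lower, beside 11.2% of all genes), with a median of -0.37. Agt, the precursor of angiotensin, fell to 9.91% of control (log2 difference -3.33, SE 0.090, adjusted p = 1.6e-07). Adm, the precursor of adrenomedullin, fell to 16.5% (adjusted p = 3.3e-07), and Iapp, that of amylin, to 22.6% (adjusted p = 1.5e-06). Agrp, that of agouti-related peptide, was well above background on no HX630 array and entered the test through the control arrays alone. It was at least 5.73-fold lower, while normexp gave 1.73-fold with an offset of 50 and 2.28-fold with an offset of 16. When all 8 arrays had to be well above background, 34 of these precursors were tested, of which 10 fell and none rose. Pomc, the ACTH precursor, was at 73% of control (log2 difference -0.45, adjusted p = 0.0024) and under the fold threshold. The number of calls in this list was 13, 8 with either normexp setting, and 11 to 12 with 1 array left out.

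Of 24 tested Z-disc partners of the calsarcins and genes of calcineurin and NFAT, 4 fell and 3 rose, with a median of -0.021. Myot, which encodes the Z-disc protein myotilin, fell to 22.2% of control (log2 difference -2.17, SE 0.067, adjusted p = 2.4e-07), and Nfatc2, a transcription factor that calcineurin activates, fell to 31.4% (adjusted p = 4.0e-06). Ldb3, a Z-disc protein that binds alpha-actinin, rose 2.04-fold (adjusted p = 2.7e-07), and Akap5, an anchor of calcineurin, rose 1.99-fold (adjusted p = 9.1e-06). The second probes of Nfatc2, A_52_P628171 (-0.57, adjusted p = 0.13), and of Ldb3, A_51_P265348 (0.72, adjusted p = 0.15), were not called. The catalytic subunit Ppp3ca had a difference of -0.084 (adjusted p = 0.14).

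Of 25 tested striated muscle genes, 7 fell and 1 rose (28% lower, beside 11.2% of all genes), with a median of -0.22. Ttn, which encodes the giant sarcomere protein titin, fell to 10.0% of control (log2 difference -3.32, SE 0.12, adjusted p = 4.9e-07), and Neb, which encodes nebulin of the thin filament, to 19.9% (adjusted p = 5.2e-07). Des, the intermediate filament gene desmin, fell to 34.1% (adjusted p = 1.8e-05) with 2 of 4 HX630 arrays well above background, and its call was lost with normexp and an offset of 50. Actc1, the cardiac actin gene, was not well above background on any control array and entered the test through the HX630 arrays alone. It was at least 2.85-fold higher with HX630, while normexp gave 1.51-fold with an offset of 50 and 2.05-fold with an offset of 16. When all 8 arrays had to be well above background, 20 of these muscle genes were tested, of which 5 fell and none rose. Of 12 markers of skeletal and cardiac muscle, 7 were well above background on all 8 arrays. Too few arrays were well above background to test Myh1 (none), Tnnt2 (2 HX630 arrays) and Ckm (3 control arrays). The summed level of the 12 was taken on the linear scale, in units of the 75th percentile. It was 2.40 to 3.24 in the controls and 0.498 to 0.618 with HX630. Most of the control sum was Ttn, and without it the sum was 0.469 to 0.580 in the controls and 0.279 to 0.340 with HX630. Their part in the fall of Myoz3 was not tested.

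**Figure D5:**
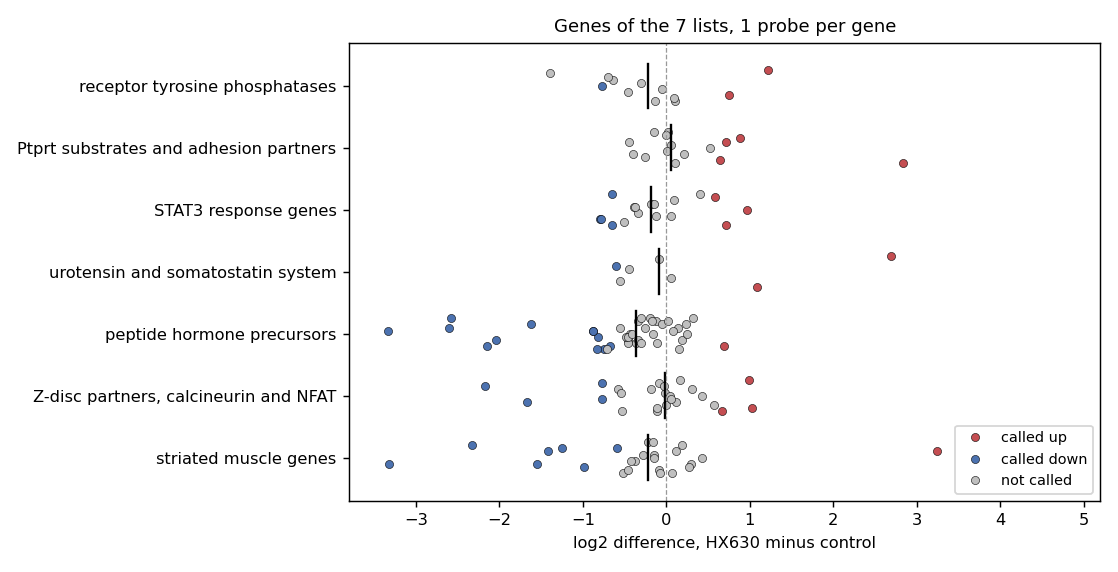
Log2 difference between HX630 and control (horizontal axis) of each tested gene in the 7 lists, with genes called higher in red, called lower in blue and the others in grey. Black lines are list medians, and the points of Actc1 (3.24) and Agrp (-2.58) are fitted values of genes that were not well above background in 1 group. The lower calls among peptide precursors and muscle genes reach -3.33 and -3.32.

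Position on the chromosome was looked at last, with gene order taken from RefSeq on GRCm38.p6. Of 33 genes that overlap the 3 genes or are among the 5 nearest on each side, 13 have a probe and 12 were tested, of which 1 rose and 2 fell, with a median log2 difference of -0.034. Over all genes tested, 19.5% were called. Synpo, next to Myoz3, which encodes the actin-associated protein synaptopodin, fell to 53.3% of control (log2 difference -0.91, SE 0.034, adjusted p = 4.9e-07), and Rbm22, on the other side, had a difference of -0.10 that turned to 0.12 with scaling to the spike-in probes. Errfi1, the fifth gene below Uts2, fell to 54.1% (adjusted p = 2.7e-06). Per3, a circadian clock gene whose annotated span overlaps that of Uts2, had a difference of 0.32 (adjusted p = 0.044) and was not called. Chd6, a chromatin remodeler gene and the protein-coding gene nearest to Ptprt on 1 side, rose 1.79-fold (adjusted p = 5.7e-06). None of these tested neighbors had a log2 difference as large as 1 in either direction.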

How the data were processed

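For each of the 8 arrays the authors deposited the output of Agilent Feature Extraction 10.7.3.1, in which the processed intensity of a spot is background subtracted and spatially detrended, without scaling between arrays. The median intensities of the spot and of its local background, and the flags set by the program, are deposited beside it. The authors also deposited a log2 table of the same arrays, which differed from the values recomputed here by at most 0.00125. The methods name GeneSpring and a fold change of 1.5 with a p-value of 0.01.

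Of the 44397 spots, 1377 are controls and were removed, as were outlier spots. Each log2 processed signal was set relative to the 75th percentile of its array, and replicate spots were averaged to 39429 probes. Probes that were flagged as well above background on 4 or more of 8 arrays, with a value on each, entered the test, and limma 3.58.1 in R 4.3.3 compared the groups (lmFit and eBayes, no block) with Benjamini-Hochberg adjustment over the 28543 probes. A gene was represented by its brightest tested probe. Probes were named through RefSeq accessions (26055 probes, 19751 symbols), used for names and gene order only, since the build in the file headers differs.

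Ptprt, Uts2 and Myoz3, the gene lists and the tests were chosen with earlier results of these data known, and the values of the 3 genes carry no p-value because the same contrast chose them. Named genes are their relatives, the called genes with the largest differences in each list and any needed for its description, chromosomal neighbors, genes of like pattern and neighbors in the order of fall. Further probes of Ptprj, Nlgn3, Nfatc2 and Ldb3 were added after their values were seen, as was the search of the windows before the starts. A fold against a group in which no array was well above background is given as a minimum. It was taken per array from the higher of the lowest detected signal and the signal of the probe. Such a minimum holds for the main background subtraction only, and normexp gave smaller folds. The sources do not say whether replicates were separate cultures beyond their labels, so p-values measure the spread between these samples. The number of arrays limits the precision. The code was tested on simulated data. Alternatives were other scalings (quantile, array median, detected probes, spike-in probes), normexp with offsets of 50 and 16, the deposited log2 values, a replicate block, array weights, outlier spots kept, other filters and variance models, the methods' t-test, averages over the probes of a gene, other thresholds, and each array left out. Of the genes the rule names, 2 are not reported here. Quantities other than the array data are not analysed here.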

Additional observations from a re-analysis of the deposited data

Results flagged for a closer look

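In 4 of 96 sets of 4 arrays, over 48 probes of the 3 genes and of 43 genes chosen by the naming rule, not all of which are described above, 1 array lay farther from the other 3 than a gap test allows, by Dixon's ratio of gap to range at the 95% level, and chance gives about 4.8 such sets. HX630 replicate 1 was the array apart in 3 of them. For Ptprt the ratio was 0.868 on probe A_51_P395373, where replicate 1 had a log2 signal of -3.11 against -4.42 to -4.24 on the other HX630 arrays, and 0.86 on A_55_P1981909, with -3.96 against -6.13 to -5.83. For Ppargc1a the ratio was 0.894, with -3.48 against -4.40 to -4.31. These genes were chosen for similar patterns, so these 3 sets are not independent of one another. In the controls, replicate 1 was apart for Tlcd2 with a ratio of 0.897, at -3.26 against -3.67 to -3.62. The cause was not tested.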

How the results depend on the processing

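The log2 differences of the 5 probes of Ptprt, Uts2 and Myoz3 kept their direction under each of 20 alternatives and moved by more than the spread between replicates only with background correction or spike-in scaling. Normexp with an offset of 50 gave -5.47 and -5.48 for Ptprt A_51_P395373 and A_55_P1981909, -4.48 for Uts2, -3.19 for Myoz3 A_55_P2217438 and -0.68 for A_55_P1963239, and an offset of 16 gave -5.78, -5.95, -4.86, -3.69 and -0.80. Spike-in scaling gave -0.82 for A_55_P1963239. With 1 array left out they ranged from -6.65 to -6.22, -7.58 to -6.86, -6.00 to -5.56, -5.32 to -4.87 and -1.12 to -0.93. Probes called up and down with HX630 numbered 4189 and 1888 with spike-in scaling and 5763 and 7243 with no fold change threshold, and calls down numbered 1638 and 1955 with normexp offsets of 50 and 16. With no fold change threshold, the lists had 6 calls (receptor tyrosine phosphatases), 8 (Ptprt partners), 12 (STAT3 response), 5 (urotensin and somatostatin), 20 (peptide precursors) and 13 (Z-disc, calcineurin and NFAT). The STAT3 list had 4 calls with spike-in scaling and with both normexp settings, the peptide list 8 with both normexp settings, and the muscle list 4 with normexp and an offset of 50 and 5 when all 8 arrays had to be well above background. Reversed signs were seen for Ptpru (0.091), Rbm22 (0.12) and Uts2r (0.13) with spike-in scaling and for Uts2r (0.0076) with array weights, and none of these was called in either fit. The cause of these shifts was not tested. Counting protein-coding neighbors only, chosen after seeing the data because most nearest genes have no probe, gave 6 called neighbors of 25 tested instead of 3 of 12. Over all genes tested, 19.5% were called. Among the 43 genes chosen by the naming rule, not all of which are described above, 42 of 1070 values under an alternative lost a call and 1 gained one. The replicate number as a block gave 5553 calls against 5313 without it, with 5216 shared. Same-numbered arrays deviated together for numbers 1, 3 and 4 (correlations of 0.52, 0.24 and 0.38) but not for number 2 (-0.0093). The main fit had no block because the labels do not say that the numbers pair samples. These correlations do not settle whether they do.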
